A study of Gallus gallus with 60 samples.

Results

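The cytosolic ribosomal proteins are the protein subunits of the ribosomes in the cytoplasm. Their members were taken from the deposited array table by name. A row was a member when its first probe set carried exactly 1 symbol in the array's annotation and that symbol was of the RPL, RPS, RPLP or RPSA type, and the rule used no measured value for these 50 rows. The row of RPL21 carried no symbol there and was added through its probe set in the study's list of probe sets that differed between the lines in these same hens. Its line difference was thus part of why it is a member, and its values are given as a description. The rule gave 51 rows for 50 genes, out of 20396 rows and 8069 named genes. All 51 rows passed the limit on low values and were tested. There were 32 rows of the large subunit, for 31 genes, and 19 rows of the small subunit. RPL9 was named by 2 rows, here called RPL9 row 1 and RPL9 row 2. RPL17 shared its row with a second symbol and was left out, and RPL5, RPL7 and RPS12 are among the genes with no member row.

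Cerebrum RNA came from 60 laying hens of 65 to 68 weeks, with 1 Affymetrix chicken gene array per hen. They were 30 hens of Lohmann Selected Leghorn (LSL) and 30 of Lohmann Brown (LB), both commercial layer lines. Groups of 54 held 14 of the LSL hens and 16 of the LB hens, and groups of 36 held 16 LSL hens and 14 LB hens. All hens were kept in a small group housing system, and the labels name the right posterior side of the cerebrum for each of them, whereas the study's methods name the left and the right posterior side. The labels name no treatment. Each compartment held a single line and gave more than 1 sampled hen, which can make p-values for the lines too small and their intervals too narrow. Which hens had been picked as stressed or unstressed was not in the labels and was not analysed here.

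A ribosome is built from a large subunit, which joins the amino acids, and a small subunit, which reads the messenger RNA. A ribosome carries a single copy of nearly every ribosomal protein, and the proteins are made in step with the ribosomal RNA. In vertebrates, nearly all of their messages begin with a short run of pyrimidines, the TOP motif, through which the mTOR kinase sets how well they are translated. The stalk of the large subunit, made of RPLP0, RPLP1 and RPLP2, recruits the elongation factors. In the brain, neurons also hold ribosomes in their dendrites, close to synapses.

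The deposited values were log2 intensities after RMA, which set every array to the same distribution with a median of 6.863. Values are therefore relative to the other rows of the same array, and a shift shared by all genes could not be seen. Each row combined the probe sets listed in its identifier. Members held 1 to 10 of them, with a median of 6. Values of different rows come from different probes and do not rank the amounts of the transcripts. Probes shared with a near-identical copy of a gene would make a row's value uncertain, and this was not checked. Whether the probes match the transcripts of both lines equally well was also not tested, so a difference in value need not be a difference in transcript level. The arrays fell into a set of 42 and a set of 18 (10 LSL and 8 LB hens) by the main component of the variance within groups, which none of the labels explains. Neuron markers averaged 10.34 to 10.69 in single LSL hens and 10.34 to 10.68 in LB hens. Of all the markers of neurons, astrocytes, oligodendrocytes, microglia, red blood cells, endothelium and meninges, 25 rows in all, only GAD2 of inhibitory neurons (-0.18, LSL minus LB on the log2 scale) and MBP of myelin (0.10) differed between the lines. When hen pairs formed a random block neither passed (adjusted p = 0.0712 for GAD2 and 0.0697 for MBP). The oligodendrocyte markers averaged 9.74 to 10.30 in LSL hens and 9.63 to 10.33 in LB hens. The part of these markers in the results was not tested. In bulk tissue, fewer cells of a type and less RNA per cell cannot be told apart.

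Between the lines, 10 ribosomal protein rows passed the test and 41 did not. Of the 10, 4 had a higher and 6 a lower value in LSL than in LB. The higher rows were those of RPS16, RPL9 row 1 and RPL4, beside RPL21, which was picked for such a difference. The lower rows were those of RPL14, RPL6, RPLP2, RPS21, RPL15 and RPS28. When hen pairs formed a random block, 4 of the 50 members other than RPL21 passed (RPL14, RPL6, RPL15 and RPS16), beside 17.0% of all rows. RPL14 stood apart with a value 1.56-fold lower in LSL, and among the other 50 rows no difference exceeded 1.2-fold. The test was limma with Benjamini-Hochberg adjustment over all 16317 tested rows at an adjusted p under 0.05. At this threshold 10 of 51 members (19.6%) were called, beside 22.8% of all tested rows, and without RPL21 they were 9 of 50 (18.0%). Upward calls made up 7.84% of the members and 10.8% of all rows, and downward calls 11.8% of the members and 11.9% of all rows. Without RPL21, 3 of 50 members (6.0%) were called higher. The share of called members thus lay near the background and is no result about the members as a group. At an unadjusted p under 0.05 there were 18 members (35.3%), beside 32.9% of all rows. The median log2 fold change was 0.01 over the members and 0.00 over all rows, with 26 members above 0 and 25 below. The median size of the difference, without its sign, was 0.057 for the members and 0.063 for all rows. A difference of over 1.2-fold was seen in 1.96% of the members and in 6.58% of all rows. In the large subunit 3 rows were higher (RPL21 among them), 4 lower and 25 did not pass. In the small subunit 1 was higher, 2 were lower and 16 did not pass.

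**Figure D1:**
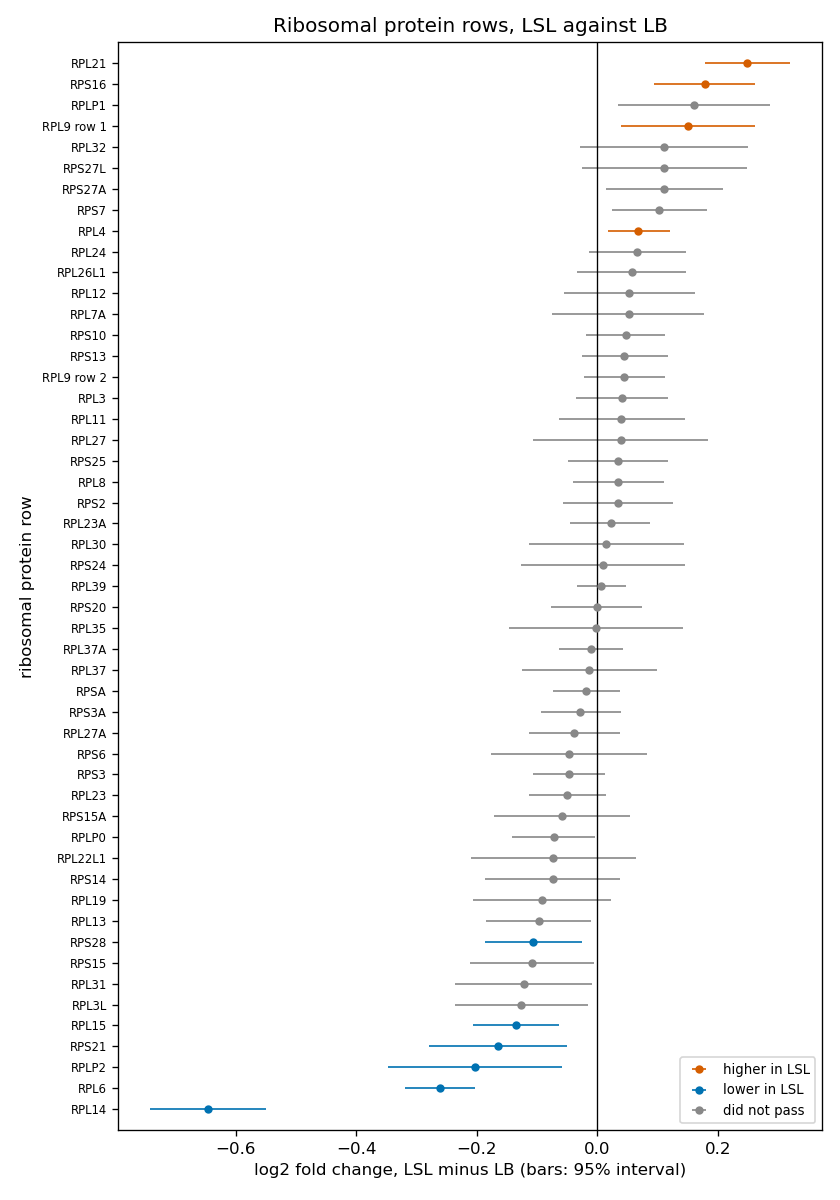
Log2 fold change of each of the 51 ribosomal protein rows, LSL minus LB (horizontal axis), over 60 hens, with bars for the 95% interval; orange rows were higher and blue rows lower in LSL, grey rows did not pass. RPL14 lies at -0.65, away from the other rows, which lie between -0.26 and 0.25 (RPL21, which was picked for a line difference).

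RPL14 encodes a protein of the large subunit. Its value was 8.14 in the lowest LSL hen, 8.61 at the median and 8.91 in the highest, against 8.89, 9.28 and 9.72 in LB hens. All 30 LSL hens lay below the LB median, 28 of them lay below the lowest LB hen, and 28 LB hens lay above the highest LSL hen, so that the lines were separated except for a narrow band. The means were 8.61 ± 0.16 in LSL and 9.26 ± 0.21 in LB (SD, n = 30 each), a log2 fold change of -0.65 (standard error, SE, 0.048, 95% interval -0.74 to -0.55, limma adjusted p = 4.1e-17). Hens from groups of 54 had a mean of 8.54 ± 0.16 in LSL (SD, n = 14) and 9.24 ± 0.20 in LB (SD, n = 16), and hens from groups of 36 had 8.68 ± 0.14 in LSL (SD, n = 16) and 9.28 ± 0.22 in LB (SD, n = 14). The difference was -0.67 in the set of 42 arrays and -0.54 in the set of 18, with an adjusted p of 9.4e-15 and 1.3e-04 from limma. The row of RPL14 combined 9 probe sets.

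RPL6, another protein of the large subunit, showed a different pattern over the hens. LB hens lay close together, from 11.00 to 11.33 with a median of 11.18 and an SD of 0.07. LSL hens ranged from 10.77 to 11.20, with a median of 10.87 and an SD of 0.14, and the widest gap between neighbouring LSL hens divided 23 hens at or below 11.00 from 7 hens at or above 11.12. The 23 hens lay below the lowest LB hen, and the 7 hens lay inside the LB range. These 7 hens came from 7 different hen pairs (hens 1 and 2, hens 3 and 4 and so on, which share line and group size), 3 from groups of 54 and 4 from groups of 36, with 5 in the larger and 2 in the smaller array set. This division was seen in the values and was not tested. The log2 fold change over all hens was -0.26 (SE 0.029, adjusted p = 9.2e-11), and it was -0.25 in groups of 54 and -0.28 in groups of 36.

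RPL15, whose protein lies deep in the large subunit and binds its RNA, had values of 8.25, 8.44 and 8.77 (lowest, median and highest hen) in LSL and 8.30, 8.56 and 8.88 in LB. The ranges overlapped almost entirely, and 23 of 30 LSL hens lay below the LB median. The log2 fold change was -0.14 (SE 0.036, adjusted p = 0.0032). In groups of 54 the difference was -0.22 (adjusted p = 0.0033), and in groups of 36 it was -0.06 (adjusted p = 0.531). The difference between the group sizes had an unadjusted p of 0.028 and an adjusted p of 1.0 in the limma interaction test.

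RPL21, whose row entered through the list of differing probe sets, is described here without a test result. Where RPL21 is counted among called rows elsewhere, that is no support for a line difference. It is a large subunit protein that is mutated in a hereditary form of hair loss in humans. Its values were 8.37, 8.72 and 8.93 in LSL (lowest, median and highest hen) and 8.22, 8.45 and 8.60 in LB. Of the LSL hens, 27 lay above the LB median and 24 above the highest LB hen, whereas 7 LB hens lay below the lowest LSL hen. LSL hens were also more widely spread, with an SD of 0.16 beside 0.10 in LB. The log2 fold change of RPL21 was 0.25 over all hens, or 1.19-fold, in a row that combined 7 probe sets. The study reported a larger difference for its RPL21 transcript, so the row's value does not stand for it. The row's log2 fold change was 0.28 in groups of 54 and 0.23 in groups of 36, and 0.30 and 0.17 in the sets of 42 and 18 arrays.

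RPS16, a protein of the small subunit whose tail reaches the transfer RNA in the decoding centre, had values of 8.86, 9.25 and 9.70 in LSL and 8.73, 9.08 and 9.42 in LB (lowest, median and highest hen). The lines overlapped over most of their range, with 24 of 30 LSL hens above the LB median and 2 above the highest LB hen. The log2 fold change was 0.18 (SE 0.042, adjusted p = 7.1e-04), and it was 0.19 and 0.21 in the sets of 42 and 18 arrays. In groups of 54 it was 0.19 (adjusted p = 0.027), and in groups of 36 it was 0.16 (adjusted p = 0.091).

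RPL9 is a large subunit protein near the base of the stalk. Its row 1 had values of 7.35, 7.97 and 8.61 in LSL and 7.58, 7.84 and 8.08 in LB. The LSL hens surrounded the LB hens, with 10 LSL hens above the highest and 1 below the lowest LB hen, and their SD was 0.28 beside 0.14 in LB. RPL9 row 1 changed by 0.15 (SE 0.056, limma adjusted p = 0.041), whereas RPL9 row 2 changed by 0.04 (95% interval -0.02 to 0.11, adjusted p = 0.381). Each of these rows combined 2 probe sets. RPL9 row 2 ranged from 9.47 to 9.90 in LSL and from 9.37 to 9.85 in LB, so that the call for this gene rested on 1 of its 2 rows.

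RPL4, which lines the tunnel through which the new protein leaves the large subunit, had values of 10.19, 10.37 and 10.62 in LSL and 10.02, 10.31 and 10.49 in LB. Its change of 0.07 (SE 0.026, adjusted p = 0.047) was the smallest of the called rows. The row was also among the least variable of the members, with a within-group SD of 0.0946. With each of the 60 hens left out in turn, RPL4 passed in 28 fits and did not pass in 32.

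**Figure D2:**
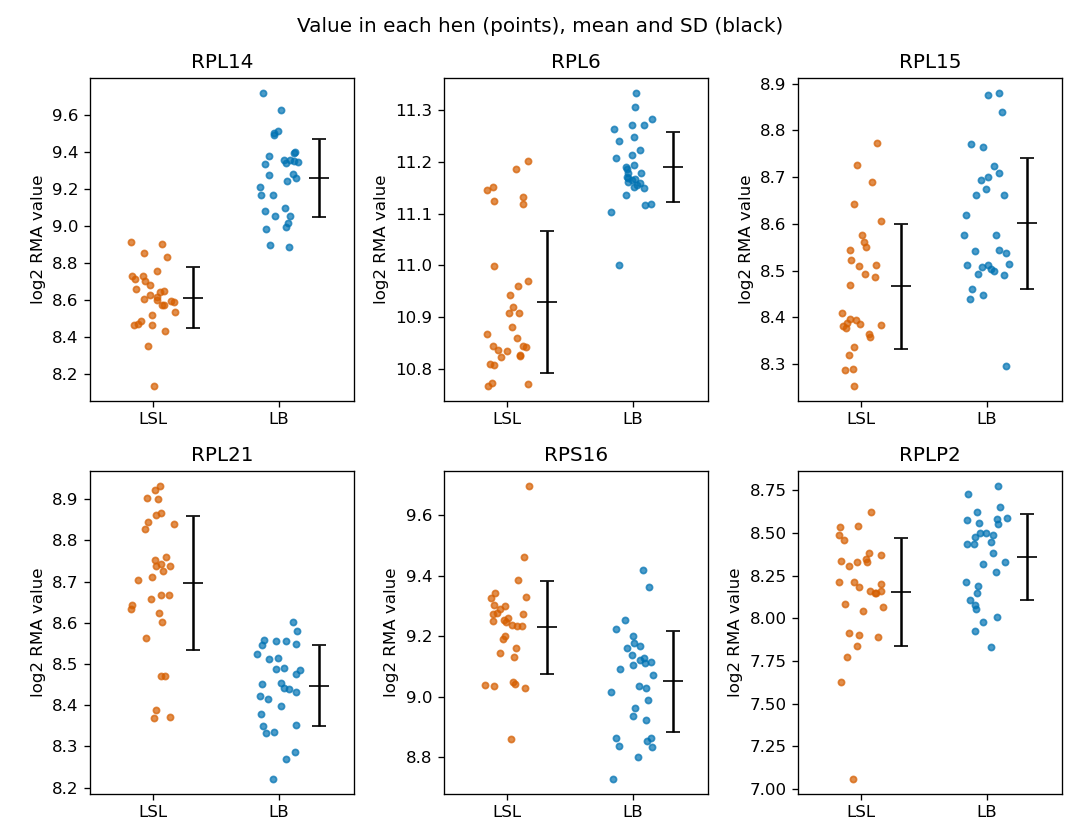
Log2 RMA value (vertical axis, its own range in each panel) of RPL14, RPL6, RPL15, RPL21, RPS16 and RPLP2 in each hen, LSL left and LB right, with the mean and SD in black. The lines are nearly separate for RPL14, LSL hens lie in a lower body of 23 and an upper body of 7 hens for RPL6, and the lines overlap for RPL15, RPS16 and RPLP2.

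Of the 3 stalk proteins, RPLP2 passed the test, and RPLP1 and RPLP0 did not. RPLP2 was lower in LSL, with values of 7.06, 8.19 and 8.62 (lowest, median and highest hen) against 7.83, 8.44 and 8.78 in LB, and a log2 fold change of -0.20 (SE 0.073, adjusted p = 0.034). Of the LSL hens, 25 lay below the LB median, but the ranges overlapped for most hens. The lowest LSL hen of RPLP2 (hen 21, a group of 54) lay far below the others, and without it the change was -0.17 (adjusted p = 0.052). The call of RPLP2 was also lost without hen 17 of LSL (adjusted p = 0.054), without hen 49 of LB (0.050) or without hen 59 of LB (0.051), each time by a small margin. RPLP1, the partner of RPLP2 in the stalk, had values of 7.31, 7.92 and 8.28 in LSL and 7.05, 7.79 and 8.24 in LB, with a log2 fold change of 0.16 (95% interval 0.04 to 0.29) and an adjusted p of 0.056, just over the threshold. RPLP0, which anchors both, had medians of 9.98 in LSL and 10.08 in LB and a log2 fold change of -0.07 (95% interval -0.14 to -0.00, adjusted p = 0.129). Without hen 39 of LSL, RPLP0 passed at -0.09 (adjusted p = 0.049).

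In the small subunit, RPS21 and RPS28 were lower in LSL. RPS21 had values of 6.97, 7.31 and 7.73 in LSL and 7.05, 7.56 and 7.87 in LB (lowest, median and highest hen), with 27 LSL hens below the LB median and 9 LB hens above the highest LSL hen. Its log2 fold change was -0.17 (SE 0.057, adjusted p = 0.027). The difference came to -0.25 in the set of 42 arrays and to 0.03 in the set of 18, where the 95% interval of RPS21 reached from -0.20 to 0.27.

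RPS28, a small subunit protein near the exit of the messenger RNA channel, is mutated in some patients with Diamond-Blackfan anaemia. It lay at 6.30, 6.62 and 7.06 in LSL and at 6.46, 6.75 and 7.03 in LB, and the ranges overlapped. The log2 fold change of RPS28 was -0.11 (SE 0.040, adjusted p = 0.046). It was -0.19 in groups of 54 (adjusted p = 0.017) and -0.03 in groups of 36 (adjusted p = 0.825). With each hen left out in turn RPS28 passed in 23 of 60 fits and RPL9 row 1 in 41, whereas RPL14, RPL6, RPS16, RPL15 and RPS21 passed in all 60.

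Near the threshold lay RPS7, another small subunit protein linked to Diamond-Blackfan anaemia. RPS7 had values of 9.31, 9.62 and 10.00 in LSL and 9.08, 9.52 and 9.80 in LB, with a log2 fold change of 0.10 (SE 0.039, limma adjusted p = 0.050, just over the threshold). RPS7 passed under 6 of 14 other settings of the analysis and in 21 of the 60 fits with a hen left out. RPL13 had a change of -0.10 (adjusted p = 0.103), and it passed when hen 12 or hen 19 of LB was left out (-0.11 each time, adjusted p = 0.040 and 0.039). RPL19 (-0.09, adjusted p = 0.266) passed only with the array set in the model, and RPL7A (0.05, adjusted p = 0.626) only in the set of 18 arrays.

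The 41 rows that did not pass had log2 fold changes from -0.13 to 0.16. For 17 of them the 95% interval lay within a 1.1-fold change either way, and for 40 it lay within 1.2-fold. These intervals treat the hens as independent and may be too narrow. Examples with narrow intervals were RPL39, a protein of the exit tunnel (0.01, 95% interval -0.03 to 0.05), RPL37A (-0.01, -0.06 to 0.04), RPSA, which also binds laminin at the cell surface (-0.02, -0.07 to 0.04), and RPS20 (-0.00, -0.08 to 0.08). RPS6, the substrate of the S6 kinases, changed by -0.05, with a wider interval of -0.18 to 0.08. RPS27A, which is made as a fusion with ubiquitin, changed by 0.11 (95% interval 0.01 to 0.21, adjusted p = 0.095). RPL32, whose row held a single probe set, changed by 0.11 (-0.03 to 0.25). RPL37A and RPL32 had the highest mean values (12.2 and 11.6), and RPL37, RPL39 and RPL8 followed at 11.2. The lowest means were those of RPS15 (7.21), RPS28 (6.68) and RPL3L (5.11).

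Some members are named as paralogs of other ribosomal protein genes, and none of them passed the test over all hens. The row that the array names RPL39 is RPL39L in RefSeq, and it did not pass either. RPL3L, which replaces RPL3 in heart and skeletal muscle of mammals, had values of 4.72, 5.03 and 5.46 in LSL and 4.79, 5.19 and 5.63 in LB. These lie around the limit of 5.085 that a row's mean had to reach, so that its change of -0.13 (95% interval -0.24 to -0.02, adjusted p = 0.091) was measured close to background. RPL3L passed only with the array set as a block (limma adjusted p = 0.049). RPL3 itself changed by 0.04 (-0.04 to 0.12). RPL22L1, the paralog of RPL22, changed by -0.07 (-0.21 to 0.07), and RPL26L1, the paralog of RPL26, by 0.06 (-0.03 to 0.15). RPS27L, a paralog of RPS27 that is a target of p53 in humans, changed by 0.11 (-0.03 to 0.25). RPL22 and RPS27 themselves had no member row. RefSeq lists RPL26L1 but no gene with the symbol RPL26.

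The line difference was repeated in parts of the hens, and RPL21 is left out of the counts in this paragraph. In the set of 42 arrays, 9 of 50 members passed, beside 22.5% of all rows. These were the members called over all hens, with RPS7 in place of RPL4. In the set of 18 arrays, 5 of 50 passed (RPL14, RPL6, RPS16, RPLP1 and RPL7A), beside 7.26% of all rows. Among hens from groups of 54, 5 of 50 passed (RPL14, RPL6, RPL15, RPS16 and RPS28), beside 11.2% of all rows. Among hens from groups of 36, 3 of 50 passed (RPL14, RPL6 and RPL13), beside 10.8% of all rows. RPL14 and RPL6 were the 2 rows called in each of these parts.

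With the array set as a block, 14 members passed (13 of 50 without RPL21), beside 29.1% of all rows. The sets were found from the values, so this count is optimistic. When hen pairs were entered as a random block, 4 of the 50 members other than RPL21 passed (8.0%), beside 17.0% of all rows. These were RPL14, RPL6, RPL15 and RPS16. The correlation within hen pairs was 0.313 over all rows, and it was 0.142 once the array set was included. Each hen pair lay within a single array set. With both in the model 13 members passed (12 of 50 without RPL21), beside 25.8% of all rows. The adjusted p with hen pairs as a block was 1.7e-15 for RPL14, 3.5e-08 for RPL6, 0.0037 for RPS16 and 0.024 for RPL15. RPLP2 (0.071), RPS21 (0.104), RPL4 (0.105), RPS28 (0.115) and RPL9 row 1 (0.115) did not pass with this block. Of 14 other settings, RPL14 and RPL6 passed under all 14, RPS16 under 13 and RPL15 under 12.

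**Figure D3:**
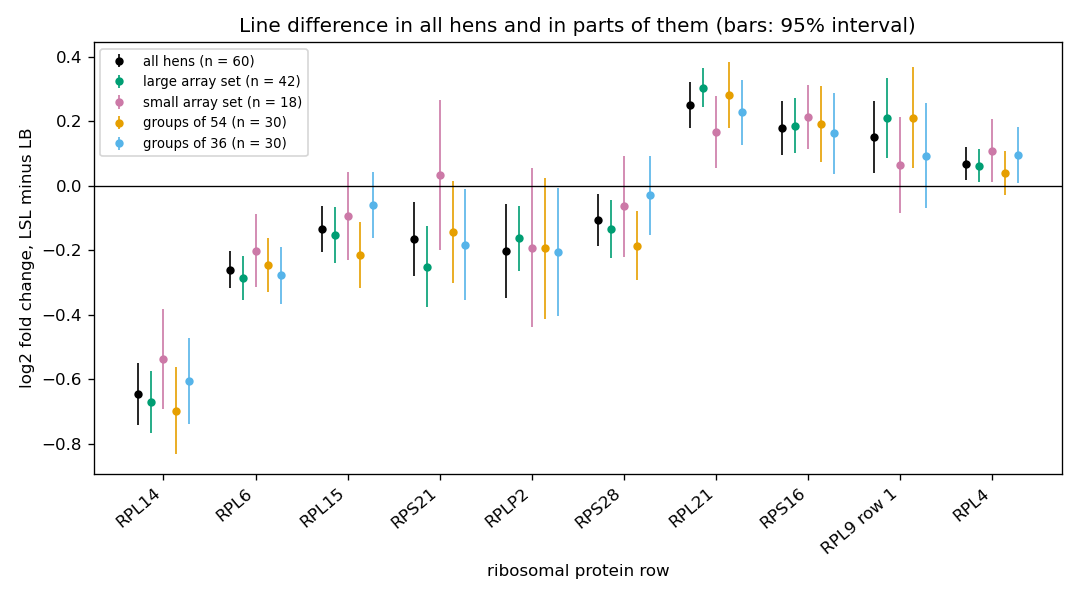
Log2 fold change, LSL minus LB (vertical axis), of the 10 called ribosomal protein rows in all hens and in 4 parts of them, with bars for the 95% interval. RPL21, which was picked for a line difference, is drawn as a description. With their intervals, RPL14 and RPL6 lie below 0 and RPS16 and RPL21 above 0 in every part. RPS21 is the only row with values on both sides of 0, at 0.03 in the set of 18 arrays.

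No ribosomal protein row passed the test for group size. Among hens from groups of 54 compared with groups of 36, 0 of 51 members passed, as did 0.0% of all rows, and the methods' unpaired test gave the same count of 0 members. At an unadjusted p under 0.05 there was 1 member (1.96%), beside 5.44% of all rows. This was RPL23, a large subunit protein that binds MDM2, with values of 9.87, 10.06 and 10.45 (lowest, median and highest hen) in groups of 54 and 9.87, 10.18 and 10.40 in groups of 36, and a log2 fold change of -0.07 (SE 0.032, limma adjusted p = 0.865). RPL3, which sits close to the centre where amino acids are joined, was next with -0.07 (95% interval -0.14 to 0.01). Over the members the log2 fold changes lay between -0.10 and 0.07, and their 95% intervals between -0.24 and 0.21. No row of the members exceeded 1.1-fold, beside 3.42% of all rows.

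Whether the line difference depended on group size was tested as an interaction. None of the 51 members passed, as did 0.0% of all rows, and 3 members (5.88%) had an unadjusted p under 0.05, beside 4.92% of all rows. These were RPL9 row 2 (-0.15, unadjusted p = 0.027), RPL15 (-0.16, unadjusted p = 0.028) and RPL13 (0.17). RPL13, a large subunit protein, had a line difference of -0.01 in groups of 54 and of -0.18 in groups of 36, where LSL hens had a median of 7.68 and LB hens 7.89. For RPL9 row 2 the line difference was -0.03 in groups of 54 and 0.12 in groups of 36. The direction of the line difference was shared by the group sizes for 34 of 51 members, beside 69.7% of all rows, and for all 10 called members, which were themselves chosen from all hens.

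**Figure D4:**
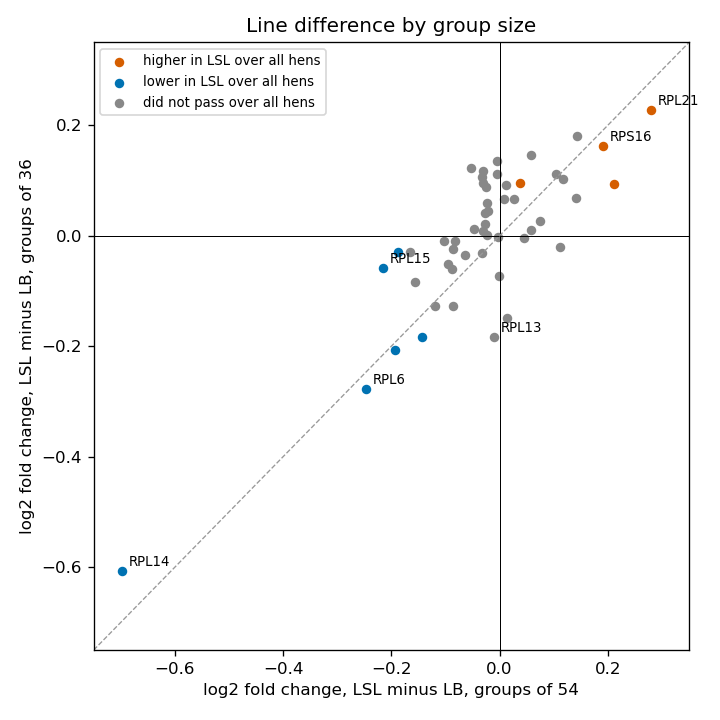
Log2 fold change, LSL minus LB, of the 51 ribosomal protein rows in groups of 54 (horizontal axis) and in groups of 36 (vertical axis), coloured by the test over all hens; the dashed line marks equal values. RPL14 and RPL6 lie near the dashed line, RPL15 is lower by 0.22 in groups of 54 and by 0.06 in groups of 36, and RPL13 by 0.01 and 0.18.

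Within the groups, ribosomal protein rows varied about as much between hens as other rows did. The median SD within groups was 0.173 over the members and 0.184 over all rows, and 23 of 51 members lay above that of all rows. The least variable members were RPL39 (0.0687), RPL4 (0.0946) and RPL37A (0.0979). The most variable were RPLP2 (0.291), RPL27 (0.291) and RPL35 (0.289). Over all 30 hens of each line, with both group sizes and array sets pooled, LB had the larger SD for 33 members and LSL for 18. LSL had the larger SD in 50.9% of all rows. The members were correlated across hens, so these are not counts of independent rows.

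Pairs of members had a higher median correlation across hens than pairs of all rows, which were not matched to the members by intensity. After group means were removed, the median of Pearson's r over 1275 pairs of members was 0.15, and 22.4% of the pairs exceeded 0.5, beside a median of 0.00 and 3.82% for pairs of all rows. With the means of the array sets also removed, the median r was 0.17 for members and 6.82% exceeded 0.5, beside 0.00 and 0.515% for all rows. The 10th percentile of r was -0.43 for members and -0.34 for all rows after group means were removed, so low correlations were also stronger among members. With array set means also removed it was -0.10 and -0.24. These are descriptions over 60 hens that share arrays, housing and hen pairs. Within the 42 arrays of the larger set the median r was 0.20, and 10.4% of the pairs exceeded 0.5, beside 0.882% for all rows.

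After group and array set means were removed, RPL3 with RPS27A had the highest correlation (0.74). RPS3A with RPS15A and RPS3A with RPL3 followed (0.73 each). Next, at 0.71 each, came RPS3A with RPL4, RPL3 with RPL26L1 and RPL11 with RPL26L1. Pairs across the subunits and pairs within a subunit were both among these. A block of rows in the plot of correlations holds RPL3, RPL11, RPL26L1, RPS27A, RPL4, RPL23, RPS6, RPS15A and RPS3A. The lowest correlation was that of RPL11 with RPL32 (-0.45). RPL23 (0.36), RPS10 (0.34) and RPS6 (0.33) had the highest median r with the other members. RPL3L (-0.11), RPL37A (-0.08) and RPL9 row 1 (-0.07) had the lowest. RPLP2, which differed between the lines, had a median r of 0.01 with the other members.

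**Figure D5:**
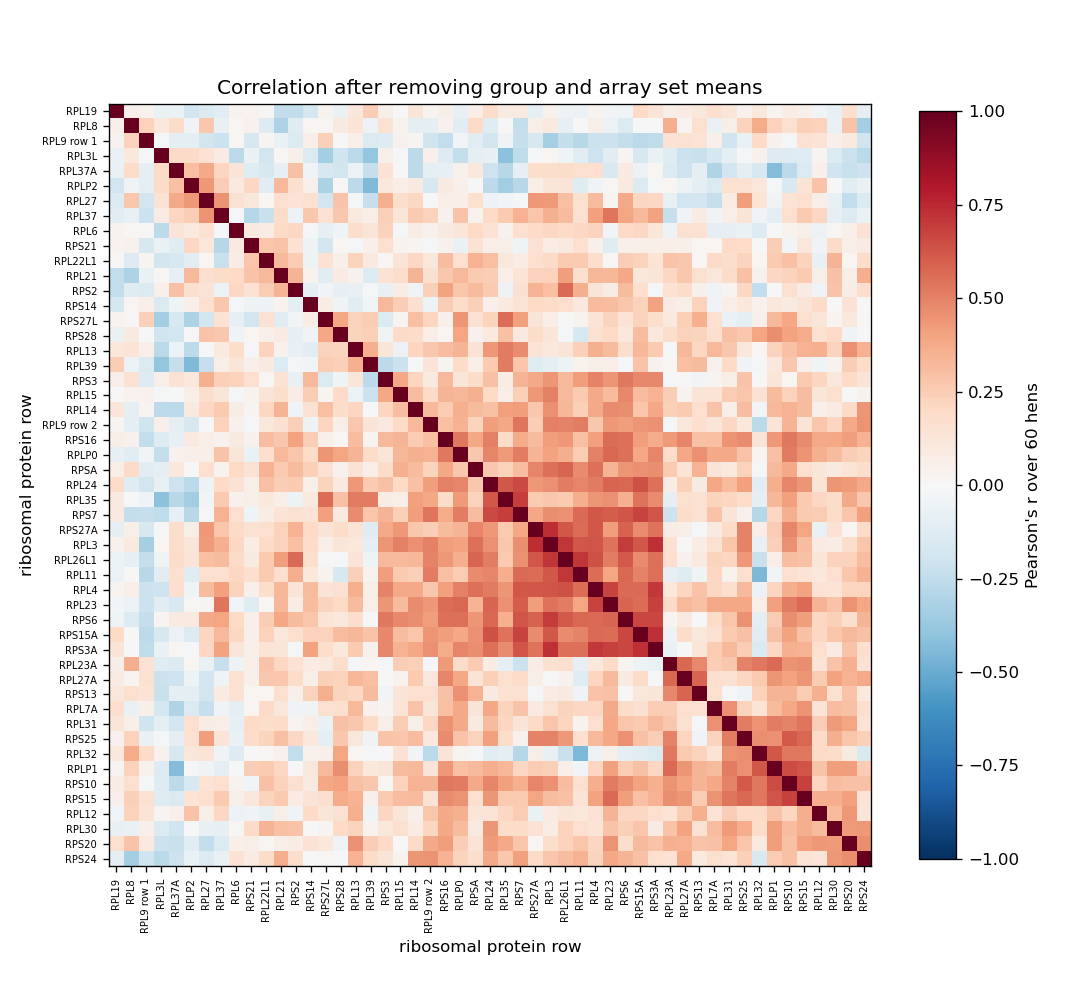
Pearson's r over 60 hens between the 51 ribosomal protein rows after the means of the groups and array sets were removed, from blue (-1) to red (1), with similar rows placed side by side. A block of rows from RPS27A to RPS3A shows the highest values, up to 0.74, and RPL3L and RPL9 row 1 have pale or blue rows.

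Genes that make, load or serve the ribosome were described beside its proteins, with the share of all rows called (22.8%) as background. GNB2L1, the scaffold protein RACK1 on the small subunit, lay at 9.82, 10.14 and 10.45 in LSL and at 10.11, 10.32 and 10.56 in LB (lowest, median and highest hen). The LSL hens lay lower, with overlapping ranges, and the log2 fold change was -0.18 (SE 0.037, limma adjusted p = 2.0e-04). Of 7 rows for the transcription of ribosomal RNA, 1 was lower, POLR1D, a subunit shared by RNA polymerases I and III (-0.15), and 6 did not pass. When hen pairs were blocked, POLR1D was not called (adjusted p = 0.124). Of 31 rows for the processing of the ribosomal RNA precursor, 1 was higher and 5 were lower in LSL. WDR36 (-0.42, adjusted p = 2.1e-12) and the helicase DHX37 (-0.35, adjusted p = 4.3e-07), both factors of early small subunit assembly, fell, and EXOSC7 of the RNA exosome rose (0.28, adjusted p = 6.7e-04). The median log2 fold change of these 31 rows was 0.01.

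Of 31 rows for the assembly and export of the subunits, 5 were higher and 4 lower. When hen pairs were blocked, 6 of these 9 calls held, and EFTUD1 (adjusted p = 0.0997), RIOK1 (0.0978) and MRTO4 (0.0786) did not. TSR1 (0.32, limma adjusted p = 3.4e-11), a late factor of the small subunit, and NIP7 (0.30, adjusted p = 1.6e-10) rose. RPF2, a factor that brings the 5S particle to the large subunit, also rose (0.29). LTV1, another small subunit factor, fell (-0.22, adjusted p = 3.1e-04), as did RPF1 (-0.11, adjusted p = 0.0093). TSR1 and LTV1, which act in the same late steps, thus moved in opposite directions. Of 13 rows for elongation factors and other TOP messages, 2 were higher, EIF3L (0.22, adjusted p = 3.7e-08) and the elongation factor EEF2 (0.07, adjusted p = 0.050, just under the threshold), and 11 did not pass. The call of EEF2 was lost when hen pairs were blocked (adjusted p = 0.0888).

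At the exit of the tunnel, 5 of 14 rows were higher, 4 lower and 5 did not pass. BTF3 and NACA form the complex that meets new proteins as they leave the ribosome. BTF3 lay at 7.57, 8.48 and 8.94 in LSL and at 6.77, 7.48 and 7.85 in LB, with a log2 fold change of 0.96 (SE 0.082, limma adjusted p = 8.8e-15). The lines overlapped only between 7.57 and 7.85. A row of NACA lay at 9.74, 10.08 and 10.38 in LSL and at 10.10, 10.32 and 10.66 in LB (-0.24, adjusted p = 2.3e-07), and the other row of NACA did not pass (-0.05, adjusted p = 0.140). The partners of this complex were thus called in opposite directions. METAP1, which removes the first methionine, rose (0.20), and SEC61A1 fell (-0.10). Parts of the signal recognition particle were called in both directions. SRP14 fell (-0.34), SRP19 (0.19) and SRP54 (0.11) rose, and SRP9 and SRP72 did not pass.

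Of 11 rows for the control of ribosomal protein messages by mTOR and the S6 kinases, 1 was higher and 2 were lower. RPS6KB2, an S6 kinase, rose (0.21, limma adjusted p = 0.0016), MLST8, a subunit of the mTOR complexes, fell (-0.10, adjusted p = 0.0097), and PDCD4, an inhibitor of translation that S6 kinase targets, fell (-0.12, adjusted p = 0.020). RPS6KB1, the other S6 kinase, had a log2 fold change of -0.06 (adjusted p = 0.070). Of 9 rows for the rescue and recycling of ribosomes, LTN1, a ubiquitin ligase for stalled chains, rose (0.08, adjusted p = 0.015), and 8 did not pass.

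Mitochondria have ribosomes of their own, whose proteins are also encoded in the nucleus. Of 49 rows for mitochondrial ribosomal proteins, 5 were higher, 13 were lower and 31 did not pass. Thus 36.7% were called, beside 19.6% of the cytosolic rows (18.0% without RPL21) and 22.8% of all rows. These shares were not tested against each other. They come from the fit that treats hens as independent, and the mitochondrial calls with hen pairs as a block are not given here. The median log2 fold change was -0.01, and 12.2% of the mitochondrial rows differed by over 1.2-fold, beside 1.96% of the cytosolic rows. MRPL13 (1.09, limma adjusted p = 4.3e-13) and MRPL50 (0.43, adjusted p = 5.8e-13) had the smallest adjusted p among the higher rows. MRPL24 (-0.27, adjusted p = 1.1e-06) and MRPS26 (-0.35, adjusted p = 1.2e-05) had the smallest adjusted p among the lower rows. MRPS26 had a second row, with 2 probe sets, that did not pass (0.06, adjusted p = 0.270), whereas the lower row held a single probe set.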

How the data were processed

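The log2 values were deposited by the authors after RMA with background correction and quantile normalisation, in a table of 20399 rows and in another of 20396 rows that held the same values. The empty row and 2 control rows were left out. Names came from the platform annotation as it stands, so that some symbols are old (GNB2L1 for RACK1), and for RPL21 from the study's list of probe sets that differed between the lines. All 50 member genes were matched to the RefSeq gene table of GRCg7b, where the RPL39 row is RPL39L and the RPSA row is RPSAP58. Low rows were removed at the 20th percentile of the row means (5.085 on the log2 scale), which left 16317. These were tested in R 4.3.3 with limma 3.58.1 (lmFit, eBayes), each effect on its own, with Benjamini-Hochberg adjustment and a threshold of 0.05. The study's methods used an unpaired test per row, which was an alternative here. With 30 arrays per line, their number limits the precision. The fits were run on simulated data with independent hens, where 17 of 50 changes of 1.1-fold and 42 of 50 changes of 1.2-fold were recovered. Only 50 rows per size of change were altered there, whereas 3714 of 16317 rows were called between the lines in the data. This moves the Benjamini-Hochberg cutoff, so the recovered shares do not give the sensitivity of the reported test. Hen pairs and array sets were not simulated, so false calls under the design of these data were not checked.

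The members, lists and alternatives were chosen with earlier results of these data known. Leaving out each hen in turn was added after the values were seen. Named were the called members, those whose call changed under an alternative, RPL21, the paralogs, the 3 most and least variable and the 3 highest and lowest members, the 2 members with the smallest p for group size and interaction, and up to 2 genes each way per list. RPS27A, RPSA, RPS20, RPS6, RPL37 and RPL8 were chosen after their values were seen. So were parts of the signal recognition particle and further mitochondrial or processing genes, named for context. A search for promoter motifs was planned and not run here, and sequences and coordinates were not used here. Set tests were not run.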

Additional observations from a re-analysis of the deposited data

How the results depend on the processing

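Over all hens 10 members were called between the lines, beside 22.8% of all rows. In the set of 18 arrays 5 were called (7.26% of all rows), in groups of 54 6 (11.2%) and in groups of 36 4 (10.8%). With hen pairs as a replicate block 5 were called (17.0% of all rows). RPL21 is in these counts wherever it passed. The share of all rows thus also fell in these settings, which hold fewer hens or add a block, and the cause was not tested. With each of the 60 hens left out in turn, 7 to 12 members were called, and the share of all rows in these fits is not given here. The remaining settings gave 8 to 11 members, beside 3666 to 3994 of all rows. They were no filter, a limit met in 1 array, and a model with group size and interaction. Cyclic loess, centring, the methods' t-test, a trended robust fit and 1 value per gene were the others. Their totals differed. Without the filter 8 members and 3994 of 20396 rows were called, whereas most of the others tested 16317 rows. The settings with the array set in the model gave 13 or 14, beside 25.8% and 29.1% of all rows. Among the called members, RPS21 changed direction in the set of 18 arrays (0.033), where it was not called. Members not called over all hens also changed direction in parts of them. Examples were RPL7A (-0.005) and RPS27L (-0.004) in the set of 42 arrays and RPL11 (-0.053) in groups of 54. Over the called rows and the other settings, 112 values kept direction and call, 27 kept the direction without passing and 1 changed direction. The count for group size and for the interaction was 0 under every alternative tried. Hen pairs share a line and a group size, and whether they shared a compartment is not in the labels. Intensities near background limit RPL3L, and quantile normalisation hides any shift common to all rows.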
